A study of Mus musculus with 3 samples.

Results

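Genes that mark the structural cells of the colon wall were followed through 3 RNA-seq libraries of sorted colonic macrophages. The 32 genes were taken by symbol from a list: 15 genes of fibroblasts and their matrix, 9 of blood vessel endothelium and 8 of smooth muscle and mural cells. All 32 had a row among the 23997 genes of each library, and every one was above 0 in all 3 libraries. The macrophages were sorted from colon as cells without Siglec-F, low in Ly6C and positive for CD64, from untreated male C57BL/6 mice whose age is given as 8.9 weeks in one label and as 9 weeks in another. The library labelled Tle3cKO came from Tle3f/f Lyz2-Cre mice (3 pooled), the Tle4cKO library from Tle4f/f Lyz2-Cre mice (4 pooled) and the WT library from mice with Lyz2-Cre alone (4 pooled). All mice, the controls too, thus carried Lyz2-Cre, which expresses Cre recombinase from the lysozyme gene of myeloid cells. With 1 library per genotype there was no replicate spread, no test and no p-value, and each difference below is between single libraries.

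Fibroblasts of the gut wall secrete fibrillar collagens and small proteoglycans, and build basement membrane together with the cells that rest on it. Endothelial cells line vessels and are held together by VE-cadherin and claudin-5. Smooth muscle cells of the muscle layers and of vessel walls contract through smooth muscle actins and myosin, and pericytes wrap the smallest vessels. Resident macrophages of the colon lie among all of these cells. In a bulk library of sorted cells, fewer cells of a type and less RNA per cell cannot be told apart.

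Most defining macrophage genes were high in every library, though not all, and the 16 on the list had median levels of 146 FPKM in the library labelled Tle3cKO, 151 in Tle4cKO and 152 in WT. Levels are FPKM, the sequenced fragments of a gene divided by its transcript length and by the library's mapped fragments. Csf1r, the receptor for macrophage colony-stimulating factor, was found at 406 FPKM in the library labelled Tle3cKO, 387 in Tle4cKO and 459 in WT. C1qa, a complement C1q chain, was at 1093, 1150 and 1243 FPKM in the same order, and the F4/80 gene, listed as Emr1, at 143, 147 and 150.4. The 16 macrophage identity genes summed to 6889, 7325 and 7693 FPKM, and the 32 structural genes to 694, 629 and 567. Lyz2, whose near-identical neighbour Lyz1 can share its reads, was at 11.7, 11.3 and 10.4 FPKM. Mertk and Cx3cr1, from the same list, were also low, at 7.65, 6.17 and 4.46 FPKM and at 7.64, 11.4 and 8.35 FPKM. Tle3 had 70.7 FPKM in the library labelled Tle3cKO, 46.9 in Tle4cKO and 38.6 in WT, so its highest level goes against that label. Tle4 had 11.01, 5.80 and 8.50 FPKM. Gene-level values do not show the deleted exons apart. By rough estimate, from the most frequent ratio to WT among low FPKM values, the library labelled Tle3cKO had 0.969 and Tle4cKO 1.21 of the depth of WT. Total FPKM was 569961 in the library labelled Tle3cKO, 598023 in Tle4cKO and 610714 in WT.

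**Figure D1:**
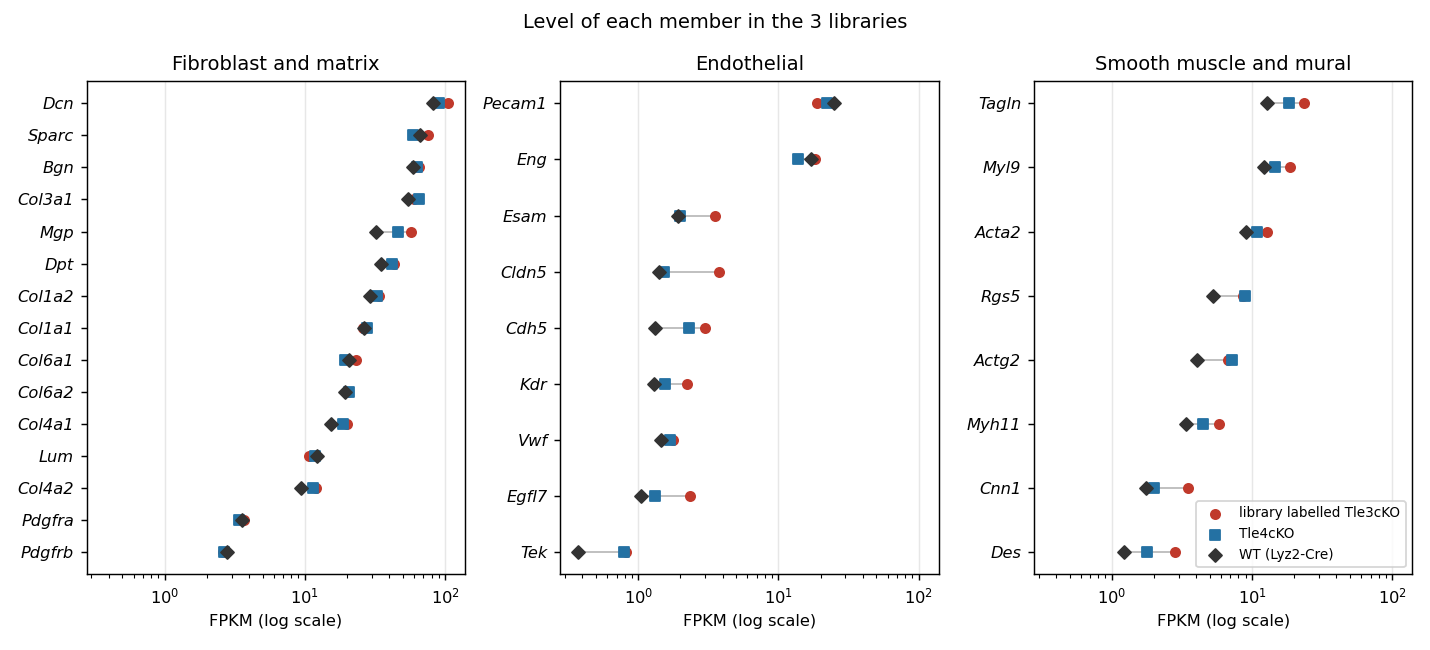
FPKM of each of the 32 genes on a log axis, in the library labelled Tle3cKO (circles), Tle4cKO (squares) and WT (diamonds), with 1 point per library. Fibroblast genes other than Mgp lay fairly close together across libraries, while all 8 muscle genes had their lowest value in WT.

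Fibroblast and matrix genes gave the highest summed level of the 3 groups and the smallest median log2 ratios to WT. Their 15 members summed to 557 FPKM in the library labelled Tle3cKO, 514 in Tle4cKO and 466 in WT, which is 0.0978%, 0.0859% and 0.0764% of all FPKM in those libraries. Dcn, the gene of the small proteoglycan decorin (ENSMUSG00000019929.16, mm10 chromosome 10, 97479609 to 97518143), was the highest. It lay at 105 FPKM in the library labelled Tle3cKO, 90.4 in Tle4cKO and 81.8 in WT, where it ranked 805, 940 and 1050 among all genes. Next by mean level came Sparc, a matrix glycoprotein also known in myeloid cells, at 75.6, 59.0 and 65.8 FPKM. Bgn, the proteoglycan biglycan, was at 64.7, 63.2 and 58.6 FPKM. Col3a1, the type III collagen chain, had 59.8, 65.2 and 54.1 FPKM. Dcn led in every library, while Sparc came second in the library labelled Tle3cKO and in WT but stood below Col3a1 and Bgn in Tle4cKO.

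The receptors that define fibroblasts and mural cells were much lower than the matrix genes. Pdgfra, the platelet-derived growth factor receptor of fibroblasts, stood at 3.70 FPKM in the library labelled Tle3cKO, 3.40 in Tle4cKO and 3.56 in WT. Pdgfrb, the related receptor of pericytes and other mural cells, was at 2.60, 2.64 and 2.77 FPKM. On the log2 scale of FPKM plus 1, the widest difference between libraries was -0.09 for Pdgfra, in Tle4cKO against the library labelled Tle3cKO. For Pdgfrb it was -0.06, in the library labelled Tle3cKO against WT. Dcn was 28.4, 26.6 and 23.0 times Pdgfra within the 3 libraries.

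Most matrix genes were slightly higher in the library labelled Tle3cKO than in WT. The log2 ratio of FPKM plus 1 was above 0 for 12 of 15 members, beside 49.6% of the 17009 genes above 0 in any library. The median was 0.15 for the 15 members and -0.01 for the 11114 genes averaging 1 FPKM or more. The exceptions were Pdgfrb, Lum, a small proteoglycan at 10.7 FPKM in that library, 11.7 in Tle4cKO and 12.2 in WT, and Col1a1 at a log2 ratio of -0.01. Under the 4 other scalings tried 13 or 14 of 15 were higher, but scaling moves all genes alike. With equal totals, which gave the 14, the median over the 11114 genes was 0.08. It was 0.04 with macrophage genes, 0.01 with upper quartiles and -0.002 with the median of ratios. Mgp stood apart from the other matrix genes. This gene of matrix Gla protein, an inhibitor of calcification made by fibroblasts, vascular muscle and some endothelium (ENSMUSG00000030218.2, chromosome 6, 136872435 to 136875823), was found at 56.9 FPKM in the library labelled Tle3cKO, 46.3 in Tle4cKO and 32.2 in WT. Its log2 ratio to WT was 0.80 in the library labelled Tle3cKO, and 0.594% of the 11114 genes had a higher one. In Tle4cKO it was 0.51, with 1.76% of those genes higher. Dcn came next among fibroblast genes in the library labelled Tle3cKO, at 0.36. Mgp has a single short transcript of 0.617 kb.

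In Tle4cKO against WT, 10 of the 15 fibroblast genes were higher, beside 48.7% of all genes above 0 in any library. The median log2 ratio was 0.11. Sparc had the lowest value, a log2 ratio of -0.16, followed by Col6a1 at -0.09, while Lum, Pdgfra and Pdgfrb were each at -0.05. Dpt, the gene of the collagen-binding protein dermatopontin, lay at 43.5 FPKM in the library labelled Tle3cKO, 41.9 in Tle4cKO and 35.1 in WT. This comparison and the preceding one share the WT library, so a low or high value there enters both.

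The collagen chains that assemble together differed in how steady their proportions were across libraries. Type I collagen joins Col1a1 and Col1a2 chains, whose genes differed little: Col1a1 had 26.1 FPKM in the library labelled Tle3cKO, 27.5 in Tle4cKO and 26.2 in WT, and Col1a2 had 33.6, 32.6 and 29.3 FPKM. The Col1a1 to Col1a2 ratio was 0.777, 0.846 and 0.895 in those libraries. The type VI chains form beaded filaments, and Col6a1 had 23.0 FPKM in the library labelled Tle3cKO, 19.3 in Tle4cKO and 20.6 in WT. Col6a2 had 20.1, 20.5 and 19.4 FPKM, which gave Col6a1 to Col6a2 ratios of 1.14, 0.941 and 1.06, so Col6a1 was the lower chain in Tle4cKO alone. The tightest pair was that of basement membrane type IV collagen, with a Col4a1 to Col4a2 ratio of 1.66, 1.62 and 1.64. Col4a1 stood at 19.9 FPKM in the library labelled Tle3cKO, 18.7 in Tle4cKO and 15.3 in WT. Col4a2 was at 12.0, 11.5 and 9.36 FPKM. Against WT, the log2 ratio in the library labelled Tle3cKO was 0.35 for Col4a1 and 0.33 for Col4a2, and in Tle4cKO it was 0.27 for both.

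Col4a1 and Col4a2 lie head to head on chromosome 8 (11198423 to 11312826 on the minus strand and 11312805 to 11449287 on the plus strand, GENCODE M21 on mm10). They are transcribed away from each other out of a shared promoter region, which is why both windows are shown. Each window runs from 250 bases before to 50 bases after the start site, from RefSeq on GRCm38.p6, at chr8:11312777-11313076 on the minus strand for Col4a1 and chr8:11312555-11312854 on the plus strand for Col4a2. Capitals mark the 78 bases that both windows hold, written 5′ to 3′ on each gene's own strand, so that one stretch is the reverse complement of the other.
Col4a1: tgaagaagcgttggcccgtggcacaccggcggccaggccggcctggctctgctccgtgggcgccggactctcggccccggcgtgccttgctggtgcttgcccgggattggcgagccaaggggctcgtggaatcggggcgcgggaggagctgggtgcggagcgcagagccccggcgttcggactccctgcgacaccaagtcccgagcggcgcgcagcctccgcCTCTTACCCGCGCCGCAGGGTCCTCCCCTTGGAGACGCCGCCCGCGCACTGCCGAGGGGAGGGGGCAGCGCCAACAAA
Col4a2: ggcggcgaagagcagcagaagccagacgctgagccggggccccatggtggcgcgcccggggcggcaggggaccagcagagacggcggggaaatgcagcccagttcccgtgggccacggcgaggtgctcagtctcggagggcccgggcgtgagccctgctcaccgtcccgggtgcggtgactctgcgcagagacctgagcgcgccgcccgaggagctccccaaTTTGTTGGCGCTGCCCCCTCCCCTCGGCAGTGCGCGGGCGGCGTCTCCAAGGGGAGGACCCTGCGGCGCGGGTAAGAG
The annotated first exons of the 2 genes share 22 bases on opposite strands.

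Most endothelial genes were low and were highest in the library labelled Tle3cKO, while the most abundant one, Pecam1, was highest in WT. Pecam1, the adhesion molecule CD31 found on endothelium and on leukocytes (ENSMUSG00000020717.19, chromosome 11, 106654217 to 106750628), was found at 18.8 FPKM in the library labelled Tle3cKO, 22.4 in Tle4cKO and 24.9 in WT. Eng, the TGF-beta co-receptor endoglin, which activated macrophages also carry, was at 18.3, 13.7 and 17.1 FPKM. Pecam1 was thus lowest in the library labelled Tle3cKO and highest in WT, with a log2 ratio of -0.39 to WT that 96.6% of the 11114 genes exceeded. The other 7 endothelial genes were all under 4 FPKM.

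Of the endothelial genes, Cldn5 had the highest log2 ratio in the library labelled Tle3cKO against WT. Cldn5, the tight junction protein claudin-5 (ENSMUSG00000041378.2, chromosome 16, 18776847 to 18778262), lay at 3.78 FPKM in the library labelled Tle3cKO, 1.53 in Tle4cKO and 1.41 in WT. Its log2 ratio to WT of 0.99 was the highest of all 32 genes and just short of 2-fold, and 0.243% of the 11114 genes had a higher one. Cdh5, which encodes VE-cadherin (ENSMUSG00000031871.9, chromosome 8, 104101625 to 104144511), was at 2.99, 2.30 and 1.31 FPKM. The value of Cldn5 in Tle4cKO was close to that in WT, whereas Cdh5 in Tle4cKO lay nearer to the library labelled Tle3cKO. Egfl7, a secreted protein of vessel growth, was at 2.36, 1.32 and 1.05 FPKM. Esam, a junction molecule also found on some dendritic cells, was at 3.54, 1.99 and 1.91 FPKM, and Kdr, the main receptor for vascular endothelial growth factor, at 2.23, 1.55 and 1.30.

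The remaining endothelial genes gave less. Vwf, von Willebrand factor of clotting, stood at 1.76 FPKM in the library labelled Tle3cKO, 1.68 in Tle4cKO and 1.46 in WT. Tek, the angiopoietin receptor Tie2, which a subset of monocytes also carries, was at 0.816, 0.795 and 0.369 FPKM and was the only member with a mean under 1 FPKM. As plain FPKM ratios, without the pseudocount that draws low genes towards 0, the library labelled Tle3cKO was 2.68 times WT for Cldn5, 2.28 times for Cdh5, 2.25 times for Egfl7 and 2.21 times for Tek. These genes rest on few fragments, by rough estimate 80 and 31 for Cldn5 in the library labelled Tle3cKO and WT, and 49 and 23 for Egfl7.

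Counted together, 8 of 9 endothelial genes were higher in the library labelled Tle3cKO than in WT, beside 49.6% of genes above 0 in any library. Their median log2 ratio was 0.49. Set against WT, Tle4cKO had 7 of 9 higher, beside 48.7%, the exceptions being Eng at -0.30 and Pecam1 at -0.15. The median there was 0.13. The sum over the 9 genes did not show this order, at 54.6 FPKM in the library labelled Tle3cKO, 47.3 in Tle4cKO and 50.8 in WT, and Pecam1 and Eng made up most of it. Without Pecam1, Eng and Esam, which myeloid cells can express, the other 6 genes summed to 13.9 FPKM in the library labelled Tle3cKO, 9.19 in Tle4cKO and 6.89 in WT. The 6 still include Tek, which a subset of monocytes also carries, so they are not free of genes found in myeloid cells. The sum of these 6 was 2.02 times the WT sum in the library labelled Tle3cKO, whereas Tle4cKO had 1.33 times the WT sum. The ratio of Pecam1 to Cdh5 within a library was 6.30 in the library labelled Tle3cKO, 9.71 in Tle4cKO and 19.0 in WT.

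**Figure D2:**
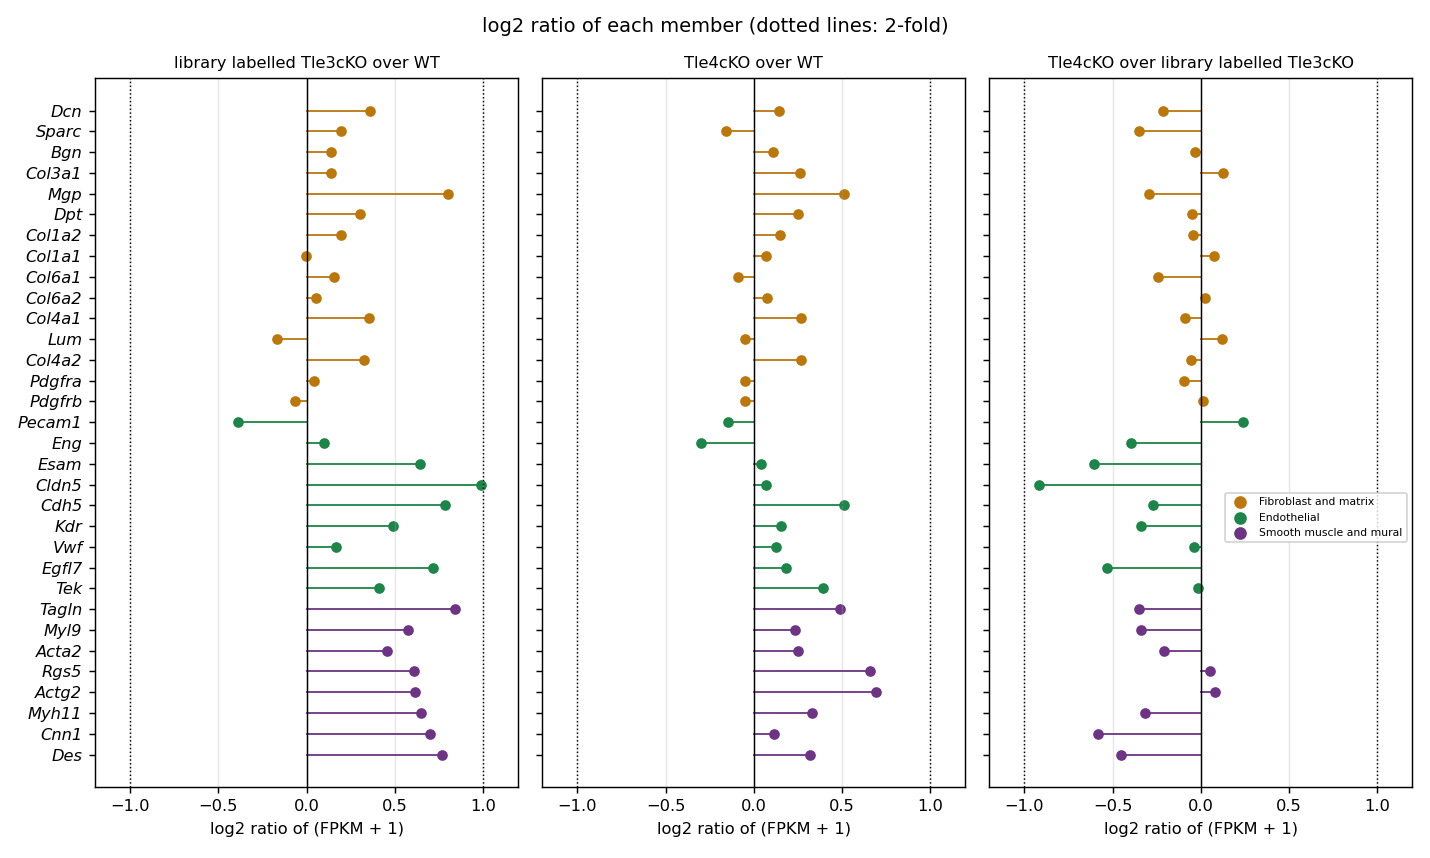
log2 ratio of FPKM plus 1 for each of the 32 genes in the 3 comparisons, 1 point per gene, ordered by mean level within the fibroblast, endothelial and muscle groups, with dotted lines at 2-fold. In the left panel every muscle gene lies between 0.46 and 0.84, while Pecam1 lies at -0.39.

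Each of the 8 members of the smooth muscle and mural group was higher than in WT in both other libraries. This did not extend to other mural genes, which are given with the longer lists below. The 8 genes summed to 82.4 FPKM in the library labelled Tle3cKO, 68.1 in Tle4cKO and 49.7 in WT. The sum in the library labelled Tle3cKO was 1.66 times that in WT, and the sum in Tle4cKO 1.37 times. Tagln, the actin-binding protein SM22 (ENSMUSG00000032085.5, chromosome 9, 45929619 to 45936058), was the highest, at 23.5 FPKM in the library labelled Tle3cKO, 18.2 in Tle4cKO and 12.7 in WT. Its exons share 108 bases with the coding gene Pcsk7 on the opposite strand, and the sources used here do not say whether the libraries keep strand. Among the muscle genes, deposited intervals were longer than the annotated genes for Tagln (72.4 kb against 6.44 kb), Cnn1 (334 kb against 10.4 kb) and Des (14.7 kb against 8.25 kb). Myl9, the regulatory light chain of smooth muscle myosin, was at 18.7, 14.6 and 12.3 FPKM. Acta2, smooth muscle alpha-actin, was at 12.8, 10.9 and 9.02 FPKM and had the smallest difference of the 8 between the library labelled Tle3cKO and WT, a log2 ratio of 0.46.

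Actg2, the gamma-actin of visceral muscle (ENSMUSG00000059430.14, chromosome 6, 83512905 to 83536265), was found at 6.75 FPKM in the library labelled Tle3cKO, 7.19 in Tle4cKO and 4.07 in WT. Rgs5, a regulator of G protein signalling used as a pericyte marker (ENSMUSG00000026678.10, chromosome 1, 169655501 to 169695813), was at 8.59, 8.94 and 5.30 FPKM. Among the 8 genes these 2 alone were highest in Tle4cKO, by a small margin. Myh11, the smooth muscle myosin heavy chain, was at 5.82, 4.47 and 3.35 FPKM. Cnn1, the thin-filament protein calponin, was at 3.48, 1.999 and 1.77 FPKM, and Des, the muscle intermediate filament desmin, at 2.80, 1.78 and 1.23.

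Against WT, the median log2 ratio over the 8 muscle genes was 0.63 in the library labelled Tle3cKO, while in Tle4cKO it was 0.32. In the library labelled Tle3cKO the genes lay close together, with a standard deviation over genes of 0.12, against 0.42 for the endothelial and 0.23 for the fibroblast genes. A ratio of at least 1.5-fold was met by 6 of the 8 muscle genes, 4 of the 9 endothelial genes and 1 of the 15 fibroblast genes in that comparison, beside 1.59% of genes averaging 1 FPKM or more. In Tle4cKO against WT it was met by Actg2 and Rgs5 alone among the 32, beside 1.21% of genes averaging 1 FPKM or more. Within each library Tagln was 4.04, 4.08 and 3.79 times Myh11, in the order of the library labelled Tle3cKO, Tle4cKO and WT.

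Serum response factor binds the CArG box and drives many contractile genes of smooth muscle. Of the 8 muscle genes 5 had a RefSeq promoter (Acta2, Myl9, Des, Cnn1 and Rgs5), and Myl9 is shown because its window was the one that held the box. The search pattern reads alike on both strands. At least 1 box was held by 1.63% of all 32851 RefSeq promoter windows of 300 bases, by 1 of 5 muscle windows, and by 0 of 11 fibroblast and 0 of 7 endothelial windows. In the Myl9 window (GRCm38.p6, chr2:156775214-156775513, plus strand) the box, in capitals, begins at position -161 from the start site.
Myl9: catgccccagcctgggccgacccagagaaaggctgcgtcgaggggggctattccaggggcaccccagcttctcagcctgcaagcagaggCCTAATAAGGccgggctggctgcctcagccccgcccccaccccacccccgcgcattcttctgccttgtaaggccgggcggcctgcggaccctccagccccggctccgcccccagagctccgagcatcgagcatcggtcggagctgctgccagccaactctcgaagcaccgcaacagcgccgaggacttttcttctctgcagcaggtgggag
A match of letters is no measure of binding, and a window without one lacks only these letters.

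**Figure D3:**
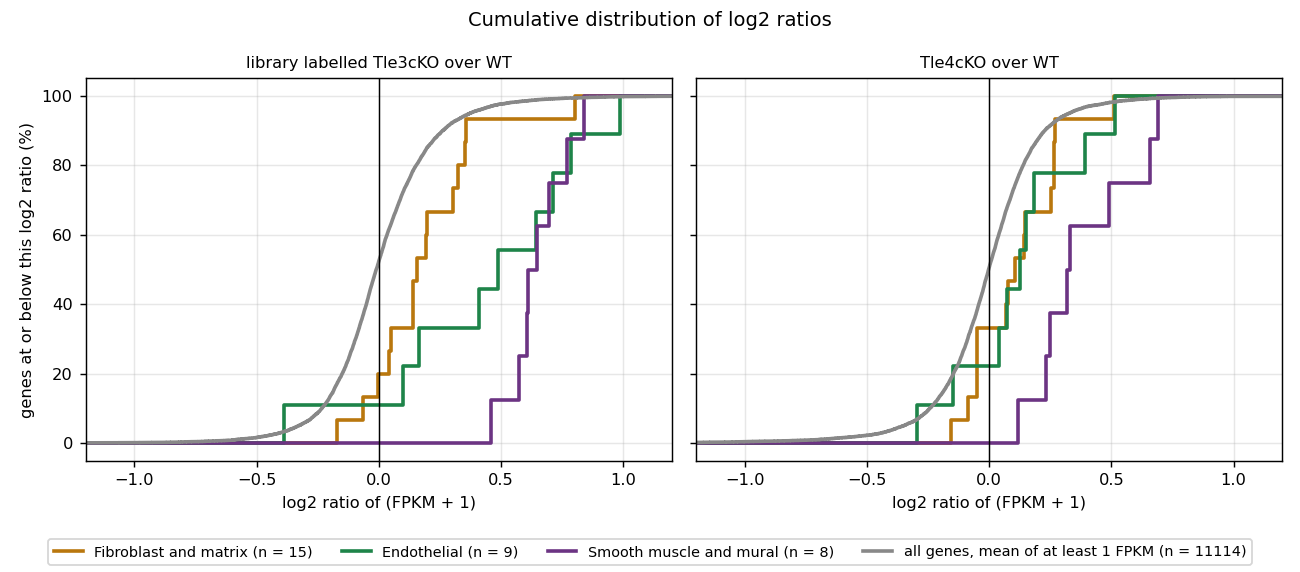
Cumulative share of genes, in percent, at or below each log2 ratio of FPKM plus 1, for the 15 fibroblast, 9 endothelial and 8 muscle genes and for the 11114 genes averaging 1 FPKM or more. The muscle curve lies wholly to the right of 0 in both panels, while in the right panel the endothelial and fibroblast curves lie close to each other.

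Over the 32 genes, 28 were higher in the library labelled Tle3cKO than in WT, beside 49.6% of genes above 0 in any library. In Tle4cKO 25 were higher than in WT, beside 48.7%. On the log2 scale of FPKM plus 1, none of the 32 was 2-fold apart in either comparison. Of the 11114 genes averaging 1 FPKM or more, 0.423% were at least 2-fold apart on that scale between the library labelled Tle3cKO and WT, and 0.648% between Tle4cKO and WT. As plain FPKM ratios to WT, 5 members reached 2 in the library labelled Tle3cKO, and Tek, whose mean is under 1 FPKM, reached 2.16 in Tle4cKO. Among genes above 0 in all libraries and averaging 1 FPKM or more, 1.54% and 1.55% were 2-fold apart in plain ratio. With FPKM plus 1, Cldn5 passed 2-fold in the library labelled Tle3cKO under 3 of the 4 other scalings, for which no share of all genes is given here. By level, 24 of the 32 genes were highest in the library labelled Tle3cKO, 5 in Tle4cKO and 3 in WT. Among those 11114 genes the shares highest in those libraries were 31.8%, 33.1% and 35.0%. The 3 highest in WT were Lum, Pdgfrb and Pecam1, which were named after their values were seen.

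Tle4cKO was also set directly against the library labelled Tle3cKO, which shares a library with each comparison above. There 8 of the 32 genes were higher, beside 49.3% of genes above 0 in any library. On the log2 scale of FPKM plus 1 none was at least 2-fold apart, beside 0.729% of genes averaging 1 FPKM or more. The median log2 ratio was -0.05 for fibroblast, -0.34 for endothelial and -0.33 for muscle genes. Cldn5 had the lowest value at -0.92, with 1.53 FPKM in Tle4cKO and 3.78 in the library labelled Tle3cKO, followed by Esam at -0.60, Cnn1 at -0.58 and Egfl7 at -0.53. Pecam1 had the highest, at 0.24. Cldn5 and Esam were at least 1.5-fold lower, beside 2.14% of genes averaging 1 FPKM or more.

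Longer lists of the same cell types were read beside the 32 genes. Of 50 further fibroblast and matrix genes, 37 were higher in the library labelled Tle3cKO than in WT (median log2 ratio 0.13), beside 49.6% of genes above 0 in any library. In Tle4cKO 24 of the 50, or 48%, were higher than in WT (median -0.00), close to the 48.7% of genes above 0 in any library. Mfap5, a microfibril protein, lay at 4.34 FPKM in the library labelled Tle3cKO, 3.14 in Tle4cKO and 2.09 in WT. Col18a1, the basement membrane collagen from which endostatin is cut, was at 8.78, 5.60 and 10.5 FPKM. Pdpn, the sialoglycoprotein podoplanin of lymphatic endothelium, fibroblasts and some macrophages, was at 42.3, 51.7 and 33.2, and Col12a1, a collagen of fibril surfaces, at 6.31, 3.88 and 5.01.

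The 30 further endothelial genes, of which 14 averaged 1 FPKM or more, had medians near those of the 9 members. Of the 30, 27 were higher in the library labelled Tle3cKO than in WT (median log2 ratio 0.44), beside 49.6% of genes above 0 in any library. In Tle4cKO 19 were higher than in WT (median 0.12), beside 48.7%. Selp, the adhesion molecule P-selectin that endothelium and platelets store, stood at 14.4 FPKM in the library labelled Tle3cKO, 7.66 in Tle4cKO and 7.06 in WT. Plvap, a protein of fenestrated capillaries, was at 12.6, 11.4 and 7.97 FPKM, and Mmrn2, a matrix protein of vessels, at 2.47, 1.53 and 1.07. The transcription factor Sox18 was at 1.82, 1.32 and 0.608 FPKM. All 30 together summed to 82.3, 60.0 and 49.5 FPKM.

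The 26 further muscle and pericyte genes, of which 12 averaged 1 FPKM or more, had smaller median log2 ratios than the 8 members. Their median log2 ratio to WT was 0.10 in the library labelled Tle3cKO, with 21 higher, and 0.04 in Tle4cKO, with 15 higher. The shares of genes above 0 in any library that were higher were 49.6% and 48.7%. Ppp1r14a, an inhibitor of myosin phosphatase in smooth muscle, was found at 10.3 FPKM in the library labelled Tle3cKO, 7.04 in Tle4cKO and 5.70 in WT, and the small heat shock protein gene Hspb6 at 2.46, 1.55 and 1.07. Mcam, the adhesion molecule CD146, went another way, at 7.08, 3.61 and 6.55 FPKM. Higd1b, a pericyte gene, was listed at 0 in every library. Other pericyte genes of this list were low and mostly near WT. Their log2 ratios to WT, in the library labelled Tle3cKO and then Tle4cKO, were 0.03 and -0.28 for Cspg4 and 0.01 and -0.04 for Notch3. For Kcnj8 they were -0.03 and 0.05, for Abcc9 0.09 and 0.09, and for Ndufa4l2 0.21 and 0.02. Pdgfrb, counted with the fibroblast genes, was at -0.06 and -0.05.

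**Figure D4:**
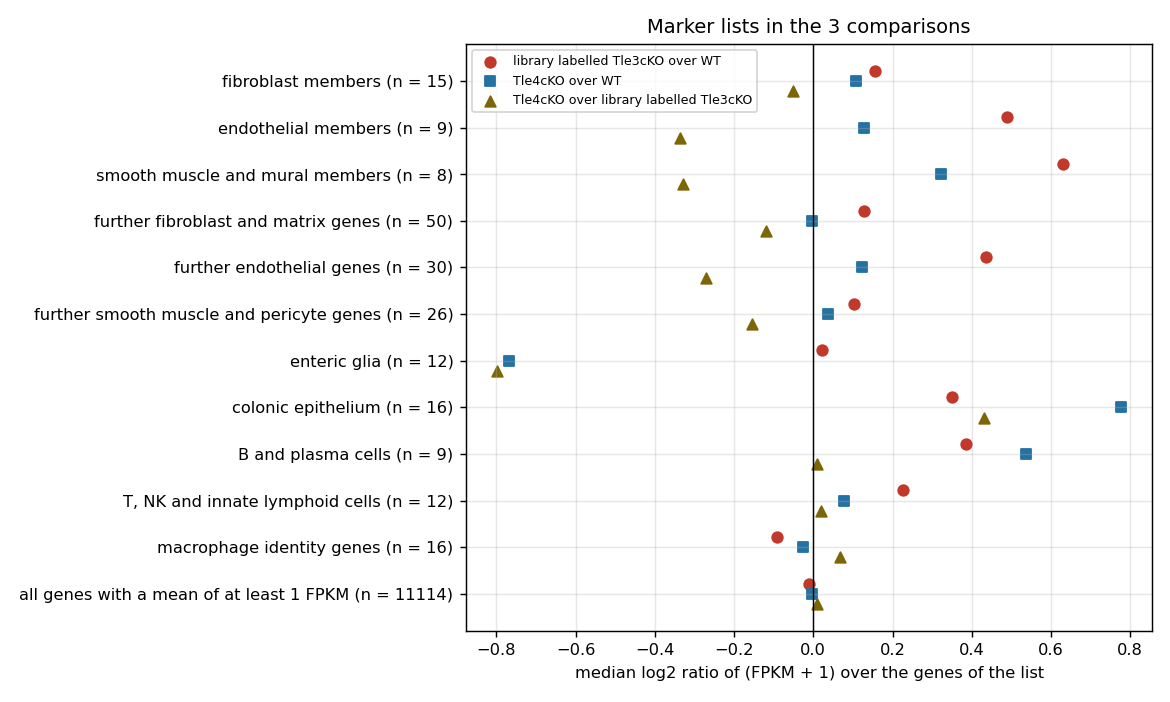
Median log2 ratio of FPKM plus 1 over each marker list in the 3 comparisons, with 1 point per list and comparison and all genes averaging 1 FPKM or more in the bottom row. Enteric glial genes lie at -0.77 in Tle4cKO against WT, where the 3 structural groups lie between 0.11 and 0.32.

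Markers of other colonic cell types differed between the same libraries, and their part in the results above was not tested. The counts below stand beside 49.6% of genes above 0 in any library that were higher in the library labelled Tle3cKO than in WT. For Tle4cKO against WT that share was 48.7%. B and plasma cell genes were higher in 9 of 9 cases in each of the other libraries against WT, with sums of 148 FPKM in the library labelled Tle3cKO, 295 in Tle4cKO and 111 in WT, led by the immunoglobulin J chain gene Igj at 57.9, 192 and 46.9. Epithelial genes were higher in 15 of 16 cases in each, with sums of 10.7, 49.3 and 5.04 FPKM, and the goblet cell gene Spink4 was at 0.560 and 18.6 FPKM and listed at 0 in WT, as were 5 of the 16 epithelial genes in all. T, NK and innate lymphoid genes were higher in 10 of 12 and 8 of 12 cases, and their sum of 431, 409 and 420.4 FPKM was mostly Il7r, at 342, 332 and 337. Most of the 12 were low, with medians of 1.35, 1.33 and 0.747 FPKM, so the sum follows Il7r rather than most of the list. The T cell genes Cd3d, Cd3e and Cd3g averaged 0.986, 1.22 and 0.849 FPKM over the libraries. Enteric glial genes were not higher with the structural genes: 7 of 12 were higher in the library labelled Tle3cKO than in WT and 0 of 12 in Tle4cKO, with sums of 55.1, 19.4 and 54.0 FPKM and Scn7a, a sodium channel of glia, at 15.3, 5.29 and 16.0. For macrophage identity genes the median log2 ratio to WT was -0.09 in the library labelled Tle3cKO, with Tle4cKO at -0.03.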

How the data were processed

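RNA was measured in 3 libraries of sorted colonic macrophages. The authors deposited FPKM for each of 23997 genes, 1 table per library, per the file headers. Per the submitters' processing notes, TopHat2 2.1.0 and Cufflinks 2.2.1 and the build mm10 were used, without the role of each. Cufflinks can divide reads among overlapping models by estimation, so overlapping genes (Tagln, Eng, Egfl7, Des, Pdgfra, Col4a1 and Col4a2 share exon bases with another annotated gene) are uncertain. Groups came from sample titles.

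Ratios were taken as log2 of FPKM with a pseudocount of 1 added, which understates differences of low genes. Shares of genes past 2-fold or 1.5-fold used the 11114 genes averaging 1 FPKM or more, which 31 of the 32 members passed. Counts and medians of lists used every member with a row. Beside them stand the share of higher genes among the 17009 above 0 in any library and the median over the 11114. With 1 library a group no test was run. Depth relative to WT was the most frequent ratio between the FPKM of genes low, but above 0, in both WT and the other library. The rough fragment numbers used a depth from the lowest step of FPKM times transcript length in single-transcript genes, so no counting interval is given.

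The members, the further lists and the alternatives were chosen with earlier results of these data known. Named were all members, Tle3 and Tle4, up to 4 genes of each further structural list with the largest log2 ratios at a mean of at least 1 FPKM, the highest gene of the other lists and 3 macrophage genes. One gene that this rule names is not reported here. Lyz2, Mertk, Cx3cr1, Higd1b and the genes in the other observations were added after their values were seen. So were Cspg4, Notch3, Kcnj8, Abcc9, Ndufa4l2, Cd3d, Cd3e and Cd3g. Of the listed symbols without a row, Adgre1, Adgrl4 and Jchain were found under older names and Trac and Trbc2 were not used here. Gene models came from GENCODE M21, and 20 of the 32 members matched the RefSeq promoter table. The code for the log2 ratio and the fold threshold was run on WT values of well-expressed genes multiplied by known factors. That run checks the code only and does not cover low genes. Versions were matplotlib 3.10.9, pandas 2.3.3, numpy 2.4.6 and Python 3.11.15.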

Additional observations from a re-analysis of the deposited data

How the results depend on the processing

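No paired analysis was possible because each genotype has 1 library, and no library could be left out for the same reason. Over 24 results and 16 other settings, 177 of 198 values kept their direction and moved by no more than 0.2 on the log2 scale or 1.5 times in a count, a tolerance used because no replicate spread exists. Some of these values could not move, so the share overstates steadiness. A count of 0 stays 0 under a stricter fold or filter or a larger pseudocount. Medians of fibroblast and muscle genes, which all average 1 FPKM or more, cannot change under that filter. The endothelial results moved most. Their median in the library labelled Tle3cKO against WT (0.49) was 0.86 with a pseudocount of 0.1, 0.20 with one of 5 and 0.89 with none, and the muscle median (0.63) was 0.37 with a pseudocount of 5. The log2 ratio of summed endothelial FPKM in that comparison (0.11) was 0.47 without Pecam1. With Tek kept, it was 1.01 without Pecam1, Eng and Esam, which myeloid cells can express. In Tle4cKO against WT it was 0.42 without those genes, against -0.10 with them, and in Tle4cKO against the library labelled Tle3cKO (-0.21) it was -0.60 without those genes and -0.52 without Pecam1 alone. Genes at least 2-fold apart in the library labelled Tle3cKO against WT were 0, and 4 with a pseudocount of 0.1 and with none (Cdh5, Cldn5, Egfl7 and Des, beside 1.35% and 1.54% of all genes averaging 1 FPKM or more, against 0.423% with a pseudocount of 1). They were 1 with scaling to equal totals, upper quartiles or macrophage genes, for which no share of all genes is given here. At 1.5-fold they were 11, all higher, beside 1.59% of all genes averaging 1 FPKM or more that were at least 1.5-fold higher. In Tle4cKO against the library labelled Tle3cKO they were 1 with a pseudocount of 0.1 and with none (beside 1.75% and 1.93% of those genes). At 1.5-fold they were 2 in that comparison, both lower, beside 2.14% of those genes at least 1.5-fold lower. In Tle4cKO against WT they were 2 at 1.5-fold, both higher, beside 1.21% at least 1.5-fold higher. Genes higher in Tle4cKO than in the library labelled Tle3cKO (8) were 5 with equal totals and with macrophage scaling. Those scalings moved all genes too, taking the median over genes averaging 1 FPKM or more from 0.01 to -0.05 and -0.04. All 8 muscle genes stayed higher than WT in both other libraries under the 4 scalings. The settings without pseudocount and with transcript length centred were chosen after seeing the data. Depth limits the low endothelial genes.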

Other observations

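The longer lists also held lymphatic, interstitial cell and transcription factor genes outside the 32 members. Prox1, the lymphatic transcription factor, lay at 0.229 FPKM in the library labelled Tle3cKO, 0.184 in Tle4cKO and 0.207 in WT, and Flt4, the receptor for lymphatic growth factors, at 0.580, 0.412 and 0.263. Kit, which marks mast cells and interstitial cells of Cajal, was at 19.5, 24.4 and 18.6 FPKM, while the chloride channel gene Ano1 of interstitial cells was at 1.09, 0.664 and 1.005. Among transcription factors of fibroblasts, Tcf21 was at 23.996, 18.8 and 19.6 FPKM, Gli1 at 2.96, 2.102 and 1.93 and Prrx1 at 0.101, 0.106 and 0.0159. Myocd, a cofactor that drives smooth muscle genes, was at 0.343, 0.346 and 0.178 FPKM. Levels well under 1 FPKM rest on few fragments, so no difference between libraries is read from Prrx1, Prox1, Flt4 or Myocd.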
